A study of Mus musculus with 9 samples.

Results

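The genes described here encode the AP-1 proteins and their close partners in T cells: Fos, Fosb, Fosl2, Jun, Junb, Jund, Batf, Atf3, Irf4 and Bhlhe40. They were chosen by gene symbol, and all 10 were present among the 24594 genes of the deposited table. RNA was sequenced from semimature CD4+ CD8- CD69+ Valpha2+ Vbeta5+ thymocytes, sorted from 5 mixed bone marrow chimeras after 4.7 weeks of reconstitution. All cells expressed OT-II, a transgenic T cell receptor specific for an ovalbumin peptide on class II MHC. OT-II control cells were Nr4a1+/+ Nr4a3+/+ with the transgene B6.Cg-Tg(TcraTcrb)425Cbn/J, from F1 donors of that strain and BoyJ, and the double knockout cells, called DKO-labelled here, were labelled Nr4a1-/- Nr4a3-/- on C57BL/6. Irradiated wild-type (WT) hosts, whose labels give BoyJ although the study's methods describe WT mice from the F1 cross, have no ovalbumin, whereas RIPmOVA hosts, F1 mice with BoyJ and a C57BL/6 parent that carries Tg(Ins2-TFRC/OVA)296Wehi/WehiJ, express a membrane-bound form. The rat insulin promoter drives that transgene, and thymic epithelial cells of the host survive irradiation, so that RIPmOVA thymocytes can meet ovalbumin as a self-antigen. Each chimera also received polyclonal WT marrow. There were n = 2 OT-II and n = 3 DKO-labelled libraries from WT hosts, and n = 2 of each from RIPmOVA hosts. Libraries with the same number and host came from the same chimera by the mouse named in their labels, and chimera numbers here are those of the labels.

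AP-1 is a dimer of basic leucine zipper proteins, most often a FOS with a JUN protein, that binds DNA downstream of the T cell receptor and MAP kinases. BATF and ATF3 belong to the same leucine zipper class, and BATF-JUN dimers bind composite DNA elements together with the interferon regulatory factor IRF4. BHLHE40 is a basic helix-loop-helix repressor that is induced by T cell receptor signals and shapes cytokine production. Fos, Fosb, Jun, Junb and Atf3 are classical immediate early genes, whose transcripts appear quickly after a signal and decay quickly. The comparisons ask how recognition of a self-antigen in the thymus, and the loss of Nr4a1 and Nr4a3, which encode nuclear receptors induced by the same signals, relate to these transcripts.

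Sequence before the transcription start was compared for the FOS, JUN and other genes, because Fos differed between hosts while Jun was highest in 1 chimera. RefSeq windows of GRCm38.p6 were matched for 9 of the 10 genes, and the 250 bases before the start were searched on both strands. Sequence farther from the start was not searched. The RefSeq starts can differ from the gene coordinates given below. The Jund window ends at 70697738, ahead of the gene start at 70698949, and the Fosl2 and Atf3 windows lie inside their genes. Annotated exons overlap the windows of Fosb, Fosl2, Batf, Irf4 and Atf3. None of the 9 windows held the AP-1 site TGANTCA, the cAMP response element TGACGTCA, the NBRE AAAGGTCA bound by NR4A receptors, a CArG box, the E-box CACGTG or the EGR site GCGTGGGCG. Among 32851 windows of that length, these were found in 6.75%, 1.55%, 1.34%, 1.47%, 6.02% and 0.536%. The shorter half-site TGACG, the variant TGACNTCA and the TATA box TATAAA were added after that search. TGACG was present in 5 of 9 windows (17.8% of all windows), TGACNTCA in 1 of 9 (7.49%) and TATAAA in 2 of 9 (12.4%), and TGACG lies inside TGACGTCA. Below are Fos (chr12:85473640-85473889, plus strand), Jun (chr4:95052223-95052472, minus strand) and Junb (chr8:84978749-84978998, minus strand), 5′ to 3′, with these 3 added motifs in capitals. No annotated exon overlaps these 3 windows.
Fos: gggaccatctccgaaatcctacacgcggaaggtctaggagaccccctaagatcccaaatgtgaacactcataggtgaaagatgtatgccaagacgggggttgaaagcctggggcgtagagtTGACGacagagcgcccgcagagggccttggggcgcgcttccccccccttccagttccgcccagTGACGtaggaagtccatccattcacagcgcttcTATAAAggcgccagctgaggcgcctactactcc
Jun: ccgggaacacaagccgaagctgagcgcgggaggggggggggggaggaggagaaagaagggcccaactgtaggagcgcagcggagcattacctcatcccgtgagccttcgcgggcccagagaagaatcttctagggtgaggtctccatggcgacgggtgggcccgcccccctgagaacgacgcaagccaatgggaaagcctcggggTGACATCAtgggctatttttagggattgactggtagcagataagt
Junb: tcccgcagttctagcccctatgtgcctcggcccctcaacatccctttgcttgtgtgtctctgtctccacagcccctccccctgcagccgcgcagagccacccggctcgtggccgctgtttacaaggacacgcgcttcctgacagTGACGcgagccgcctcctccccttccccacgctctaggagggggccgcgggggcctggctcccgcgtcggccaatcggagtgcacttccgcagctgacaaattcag
In the Fos window, TGACG starts 129 and 66 bases and TATAAA 33 bases before the start. The Jun window held TGACATCA, a match to TGACNTCA, 45 bases before the start and no TATAAA. In the Junb window the half-site lies 106 bases before the start. A match describes letters only, and binding was not measured.

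Depth was 15520685 to 25054075 reads per library, worked out from low values of RPKM (reads scaled to exon length and to the reads of the library), which step by 1 read. CD4 T cell markers were high in every library, with Cd3e at 234 to 303 RPKM and Cd4 at 189 to 241 RPKM. Summed RPKM of the regulatory T cell markers Foxp3, Il2ra, Ikzf4 and Lrrc32 was 24.4 to 28.6 in OT-II and 9.42 to 13.0 in DKO-labelled cells of RIPmOVA hosts. It was 1.98 to 7.80 in WT hosts. The sums came mostly from Il2ra and Ikzf4. Foxp3 itself was 1.90 and 3.31 RPKM in OT-II libraries of RIPmOVA hosts. In DKO-labelled libraries of RIPmOVA hosts it was 0.092 and 0.077 RPKM, within the 0.037 to 0.491 RPKM of WT hosts. The 8 macrophage and dendritic cell markers summed to 10.7 to 20.8 RPKM in RIPmOVA OT-II libraries and 2.80 to 10.4 elsewhere, mostly through Lyz2. Summed RPKM of olfactory and vomeronasal receptor genes, which T cells do not use, was 464 and 622 in the DKO-labelled libraries from RIPmOVA hosts and 72.7 to 433 in the others. Nr4a1 was 60.1 to 282 RPKM in DKO-labelled and 60.7 to 260 RPKM in OT-II libraries, and Nr4a3 was 16.5 and 14.1 RPKM in DKO-labelled against 5.66 and 3.72 RPKM in OT-II libraries from RIPmOVA hosts. Gene-level RPKM of the targeted genes thus does not check the genotype labels, and the genotype of each library, and with it every direction between genotypes, rests on its label. Deviations from group means cannot check the labelled pairing either. In a group of n = 2 they mirror each other, so each correlation returns with the opposite sign for the other library. They correlated at -0.24 to 0.01 between libraries of the same chimera. The values were 0.24 and 0.31 between OT-II 1 and DKO-labelled 2 and between OT-II 2 and DKO-labelled 3 of WT hosts. The red cell gene Hba-a1 was 13.9 and 13.0 RPKM in that last pair and at most 1.24 RPKM in the other 7 libraries.

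By level, the JUN genes Jund and Junb led in every group and Batf came next. In OT-II libraries from WT hosts the order of mean RPKM was Jund (134), Junb (108), Batf (25.2), Irf4 (9.43), Fos (4.68), Jun (2.61), Fosl2 (0.258), Bhlhe40 (0.177), Atf3 (0.076) and Fosb (0.015). Within that order, Jund overlapped Junb, Fosl2 overlapped Bhlhe40 and Bhlhe40 overlapped Atf3 between their libraries. In DKO-labelled cells of WT hosts the order was the same but for Bhlhe40 (0.616) and Fosl2 (0.315), whose libraries overlapped, as did those of Fos and Jun. In RIPmOVA hosts Bhlhe40 moved up the order. It lay between Irf4 (12.2) and Fos (8.64) in OT-II cells and overlapped both. In DKO-labelled cells it ranked 4 of 10 at a mean of 34.2 RPKM, and Batf (49.8), Bhlhe40, Irf4 (23.0) and Fos (18.4) each overlapped the next in order. These ranks carry a limit of scale, since the deposited exon length fell within 1% of the sum of distinct annotated exons for 79.4% of 24070 genes and within 1% of merged exons for 25.1%, so that exons shared between isoforms can count more than once. For Fos the deposited length was 3792 bases against 2352 bases of merged exons, and for Fosb 12896 against 6243.

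**Figure D1:**
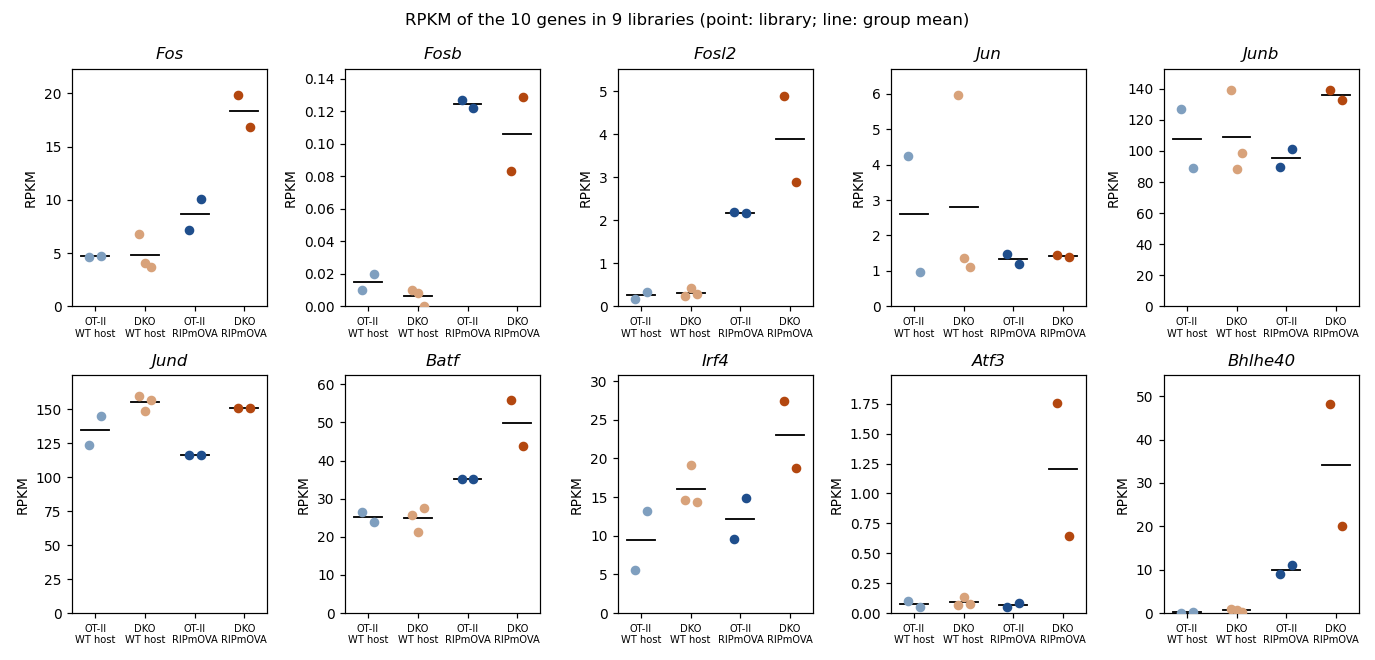
RPKM (vertical axis, from 0) of the 10 genes in 9 libraries, by genotype and host; points are libraries and lines are group means. Fos, Fosb, Fosl2, Batf and Bhlhe40 lie above all WT-host libraries in the 4 RIPmOVA libraries. The share of all genes that do so was not counted, and Fosl2 and Bhlhe40 passed the filter through these 4 libraries alone. Atf3 is highest in the 2 DKO-labelled libraries from RIPmOVA hosts, and Jun is highest in the 2 libraries of chimera 1 from WT hosts.

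Of the 10 genes, 8 passed the filter of at least 1 RPKM in at least 2 libraries, and Fosl2 and Bhlhe40 passed it through the 4 RIPmOVA libraries alone. Fosb passed in 0 libraries and Atf3 reached 1 RPKM in 1. Having passed only where they were high, Fosl2 and Bhlhe40 were bound to have higher values in RIPmOVA hosts. Their calls are thus given as values and left out of the counts. Of the other 6, 0 were called higher in RIPmOVA than in WT hosts in OT-II cells, where 1.05% of 11569 genes were called higher, and 1, Fos, in DKO-labelled cells, where 1.52% of genes were. Over these 6 the median log2 fold change was 0.14 for OT-II and 0.42 for DKO-labelled cells, beside -0.02 and 0.03 over all genes tested. With no filter, 1 of the 10 genes (Bhlhe40) was called higher in OT-II cells, where 0.433% of 23801 genes were, and 4 (Fos, Fosl2, Atf3 and Bhlhe40) in DKO-labelled cells, where 0.781% were. None was called lower in either. Called means an adjusted p of at most 0.05 and a log2 fold change of 1 or more in either direction, from limma on log2(RPKM + 0.5) with Benjamini-Hochberg adjustment over all 11569 genes, a scale that understates changes of low genes. In bulk RNA, fewer cells with a transcript and less RNA per cell cannot be told apart. Nothing in the labels names separate days or batches.

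**Figure D2:**
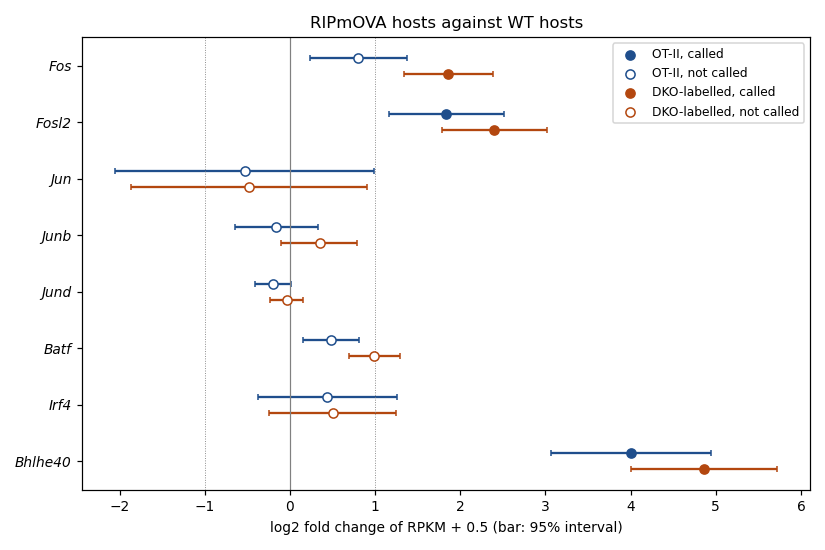
Log2 fold change of RPKM + 0.5 (horizontal axis) between RIPmOVA and WT hosts for the 8 genes tested, in OT-II and in DKO-labelled cells; bars are 95% intervals from limma, filled points are called, and dotted lines mark the fold limit of 1. Bhlhe40 lies at 4.0 and 4.86 and Fosl2 at 1.83 and 2.40, while the intervals of Jun, Junb, Jund and Irf4 include 0 in both.

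Fos (chromosome 12, 85473890 to 85477273, GRCm38, plus strand, protein-coding), the founding FOS gene, rose in DKO-labelled cells of RIPmOVA hosts. It was 4.62 and 4.74 RPKM in OT-II and 6.76, 4.05 and 3.70 RPKM in DKO-labelled libraries from WT hosts. With RIPmOVA hosts it was 7.20 and 10.1 RPKM in OT-II and 19.9 and 16.9 RPKM in DKO-labelled libraries. Both DKO-labelled RIPmOVA libraries exceeded the other 7, and both OT-II RIPmOVA libraries exceeded all 5 of WT hosts. The log2 fold change between hosts was 1.86 (SE 0.23, limma adjusted p = 0.00338) in DKO-labelled cells and 0.80 (SE 0.25, limma adjusted p = 0.179) in OT-II cells. All 21 alternatives kept the call in DKO-labelled cells, with values of 1.71 to 2.11, and none of them made one in OT-II cells, where values were 0.57 to 1.03.

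Fosl2 (chromosome 5, 32135801 to 32157842, plus strand), which encodes the FOS-related protein FRA-2, was low in WT hosts and rose in RIPmOVA hosts in both genotypes. Its level there was 0.174 and 0.341 RPKM in OT-II and 0.227, 0.433 and 0.285 RPKM in DKO-labelled libraries, or 22 to 71 reads per library. RIPmOVA hosts gave 2.20 and 2.16 RPKM in OT-II and 4.89 and 2.90 RPKM in DKO-labelled libraries, or 295 to 814 reads. The 4 RIPmOVA libraries did not overlap the 5 of WT hosts. As Fosl2 passed the filter through those 4 alone, this separation was fixed in advance, and the calls below carry that limit. The log2 fold change between hosts was 1.83 (SE 0.30, limma adjusted p = 0.0201) in OT-II and 2.40 (SE 0.27, limma adjusted p = 0.00223) in DKO-labelled cells. All 20 alternatives kept the second call. The first was kept in 13 of 20, while its value stayed between 1.34 and 3.07. It was lost with no filter (adjusted p = 0.0604), with quantile normalization (0.0551) and with only the groups compared (0.106). It was also lost without OT-II replicate 1 of WT hosts (0.0892), without both libraries of chimera 1 of WT hosts (0.107), and without OT-II replicate 1 (0.182) or 2 (0.125) of RIPmOVA hosts.

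Fosb (chromosome 7, 19302696 to 19310051, minus strand), the other FOS gene measured, lay at or near the floor of 3 reads in WT hosts. OT-II libraries held 2 and 6 reads and DKO-labelled libraries 3, 2 and 0 reads of Fosb in WT hosts, or at most 0.02 RPKM. In RIPmOVA hosts they held 27 and 38 reads (0.127 and 0.122 RPKM) and 22 and 29 reads (0.083 and 0.129 RPKM). Every RIPmOVA library thus had more reads than any of WT hosts, at levels under the filter. In a limma fit with no filter the host difference of Fosb was 0.28 (adjusted p = 0.23) in OT-II and 0.26 (adjusted p = 0.116) in DKO-labelled cells. As no molecular identifiers were used, the error of these read numbers can exceed counting error.

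**Figure D3:**
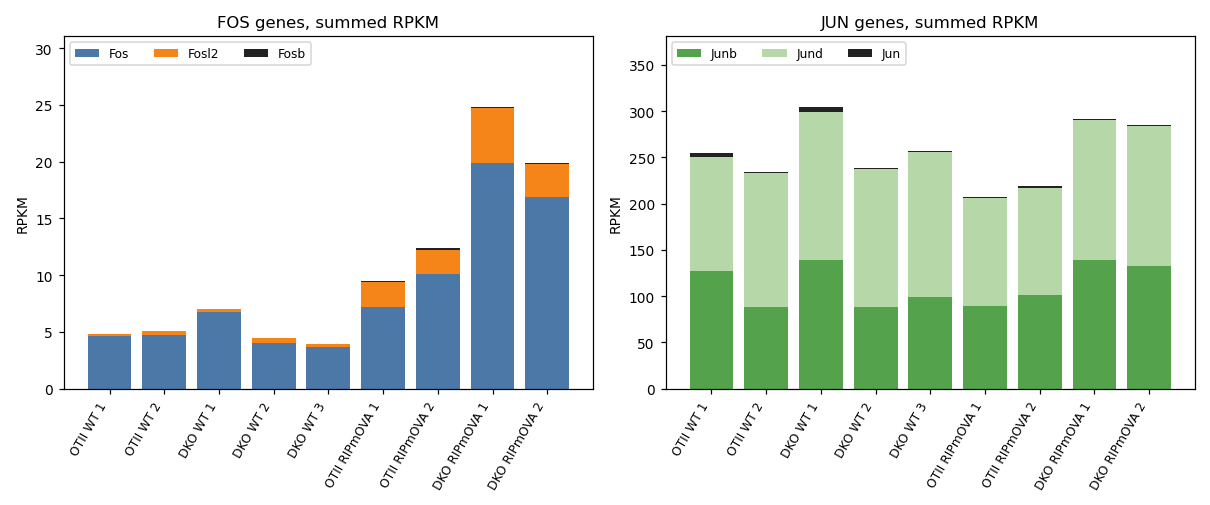
Summed RPKM (vertical axes, from 0) of the FOS genes Fos, Fosl2 and Fosb and of the JUN genes Junb, Jund and Jun in each library; colours are genes. FOS genes sum to 3.98 to 7.0 RPKM in WT hosts and 9.52 to 24.8 in RIPmOVA hosts, while JUN genes sum to 208 to 305 RPKM across all libraries.

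The ratio of JUN to FOS transcripts was lower in every RIPmOVA library than in any from WT hosts. Summed RPKM of the JUN genes was 43.6 to 64.5 times that of the FOS genes in libraries from WT hosts, 17.7 and 21.8 times in OT-II and 11.7 and 14.3 times in DKO-labelled libraries from RIPmOVA hosts. Fos held 90.2% to 96.6% of the FOS sum in WT hosts and 75.6% to 84.8% in RIPmOVA hosts, where Fosl2 held 14.6% to 23.1%. The JUN sum came from Junb (37.1% to 49.8%) and Jund (48.6% to 62.3%), and Jun itself gave at most 1.96% of it. These ratios and shares are of RPKM and carry no test. Their size depends on the deposited exon lengths, which exceed merged exons for Fos (3792 against 2352 bases) and Fosb (12896 against 6243). For Jun and Jund the 2 lengths are equal, and for Fosl2 and Junb the deposited length is the shorter.

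Jun (chromosome 4, 95049034 to 95052222, minus strand), the founding JUN gene, was highest in 1 chimera in both genotypes. It was 4.24 RPKM in the OT-II and 5.97 RPKM in the DKO-labelled library of chimera 1 of the WT hosts, and 0.978 to 1.48 RPKM in the other 7 libraries. Host differences were -0.53 (95% interval -2.05 to 0.99) in OT-II and -0.48 (-1.87 to 0.90) in DKO-labelled cells on the log2 scale. Without both libraries of that chimera they were 0.31 and 0.15. Jun shares 232 exonic bases with an antisense gene, Junos, and whether counting used strand was not stated.

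Junb (chromosome 8, 84974484 to 84978718, minus strand), which can restrain JUN activity, also stood high in that chimera. It was 127 and 88.8 RPKM in OT-II and 139, 88.6 and 98.7 RPKM in DKO-labelled libraries from WT hosts, the first of each from chimera 1. In RIPmOVA hosts it was 89.6 and 101 RPKM in OT-II and 139 and 133 RPKM in DKO-labelled libraries. Groups overlapped between hosts, with log2 differences of -0.16 (95% interval -0.64 to 0.33) in OT-II and 0.35 (-0.10 to 0.79) in DKO-labelled cells. Junb shares 173 exonic bases with Prdx2 on the other strand, which was at 26.6 to 43.4 RPKM.

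Jund (chromosome 8, 70698949 to 70700616, plus strand), the JUN gene that resting cells express steadily, was the most even of the 3 and the highest of the 10 genes in each group mean. It was 124 and 145 RPKM in OT-II and 160, 149 and 157 RPKM in DKO-labelled libraries from WT hosts, and 116 and 116 against 151 and 151 RPKM in RIPmOVA hosts. Its log2 host differences were -0.20 (95% interval -0.41 to 0.01) in OT-II and -0.04 (-0.23 to 0.15) in DKO-labelled cells. The gene Gm11175 on the other strand covers 877 of its exonic bases.

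**Figure D4:**
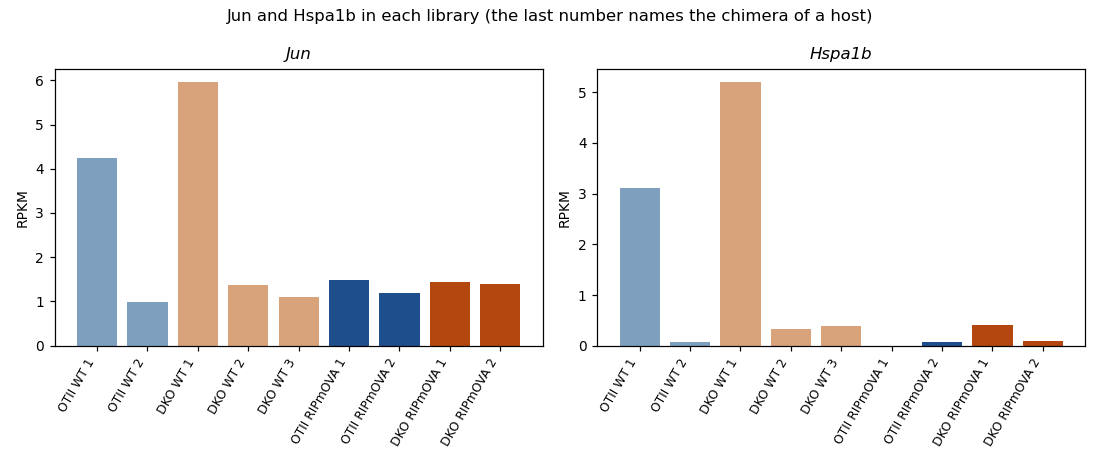
RPKM (vertical axes, from 0) of Jun and of the heat shock gene Hspa1b in each of 9 libraries; bars are libraries, coloured by group, and the last number names the chimera of that host. Both genes are highest in the 2 libraries of chimera 1 from WT hosts.

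Genes whose profile over the 9 libraries was most like that of Jun, looked up after its values were seen, were Ets2 (Pearson r = 0.962), Xaf1 (0.957) and Hspa1b (0.954). Hspa1b, an inducible heat shock protein gene with a near-identical copy that makes its reads uncertain, was 3.10 and 5.21 RPKM in the 2 libraries of chimera 1 and 0 to 0.401 RPKM in the other 7. Of 14 heat shock genes tested, 5 (Dnaja1, Dnajb1, Hsp90aa1, Hspa1b and Hspa8) were higher in both libraries of chimera 1 than in the other 3 of WT hosts, as were 9.86% of all genes tested. None of the 14 was called by limma in any of the 5 comparisons. At an unadjusted p under 0.05, 3 differed between hosts in DKO-labelled cells, where 17.6% of all genes did, and 0 in the other 4 comparisons, where 7.89% to 21.4% did. The part of the heat shock genes in the values of Jun and Junb was not tested.

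Batf (chromosome 12, 85686669 to 85709087, plus strand), the IRF4 partner, was higher in RIPmOVA than in WT hosts in DKO-labelled cells, by just under the fold limit. It was 26.4 and 23.9 RPKM in OT-II and 25.6, 21.4 and 27.5 RPKM in DKO-labelled libraries from WT hosts. With RIPmOVA hosts it was 35.2 and 35.2 RPKM in OT-II and 56.0 and 43.7 RPKM in DKO-labelled libraries. The 3 levels (WT hosts, OT-II in RIPmOVA, DKO-labelled in RIPmOVA) did not overlap. The log2 host difference was 0.99 (SE 0.13, limma adjusted p = 0.00527) in DKO-labelled cells and 0.48 (SE 0.15, limma adjusted p = 0.168) in OT-II cells. The first was called in 8 of 21 alternatives, among them those without DKO-labelled replicate 1 (1.01) or 3 (1.06) of WT hosts or replicate 2 (1.16) of RIPmOVA hosts, with values of 0.81 to 1.16 in all.

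Irf4 (chromosome 13, 30749226 to 30766976, plus strand), a factor whose level follows the strength of T cell receptor signals, spread widely within groups. It was 5.60 and 13.3 RPKM in OT-II and 14.6, 19.1 and 14.4 RPKM in DKO-labelled libraries from WT hosts. With RIPmOVA hosts it was 9.54 and 14.9 RPKM in OT-II and 27.4 and 18.7 RPKM in DKO-labelled libraries. Hosts overlapped in both genotypes, while DKO-labelled libraries lay above OT-II libraries within each host. In RIPmOVA hosts 34.6% of all genes did so too, and the share in WT hosts was not counted. The log2 host difference was 0.44 (95% interval -0.37 to 1.26) in OT-II and 0.50 (-0.25 to 1.24) in DKO-labelled cells, and the first turned to -0.14 without OT-II replicate 1 of WT hosts. Over the 9 libraries the profiles most like Irf4 were Ankrd28 (Pearson r = 0.977), Fam120c (0.976) and Dhx33 (0.969).

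Atf3 (chromosome 1, 191170296 to 191218039, minus strand), a stress-induced repressor of the same zipper class, was detected above a few reads only in DKO-labelled libraries from RIPmOVA hosts. These held 92 and 29 reads (1.75 and 0.648 RPKM). The other 7 libraries held 2 to 7 reads (0.047 to 0.135 RPKM). In a limma fit with no filter Atf3 differed between hosts by 1.44 (SE 0.26, adjusted p = 0.0341) in DKO-labelled cells and by -0.03 (SE 0.28) in OT-II cells, and between genotypes in RIPmOVA hosts by 1.51 (SE 0.28, adjusted p = 0.0427). The difference of the host effects, 1.47 (SE 0.38), had an adjusted p of 0.348.

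Bhlhe40 (chromosome 6, 108660629 to 108666925, plus strand) showed the largest host difference of the 8 genes tested. In WT hosts it was 0 and 0.355 RPKM in OT-II (0 and 31 reads) and 0.901, 0.630 and 0.317 RPKM in DKO-labelled libraries (83, 48 and 30 reads). RIPmOVA hosts gave 8.97 and 11.1 RPKM in OT-II (559 and 1012 reads) and 48.3 and 20.1 RPKM in DKO-labelled libraries (3737 and 1325 reads). The groups of the 2 hosts were far apart, and the 2 DKO-labelled RIPmOVA libraries differed from each other more than the OT-II ones did.

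The log2 host difference of Bhlhe40 was 4.0 (SE 0.42, limma adjusted p = 0.00209) in OT-II and 4.86 (SE 0.38, limma adjusted p = 0.000373) in DKO-labelled cells. Because OT-II libraries of WT hosts held few reads, its size there depends on the scale: it was 5.56 at a pseudocount of 0.1, 3.24 at 1, and 7.26 with limma voom on recovered reads, where the call was lost (adjusted p = 0.199). All 21 alternatives kept the call in DKO-labelled cells. Bhlhe40 passed the filter through RIPmOVA libraries alone, so higher values there were fixed in advance, and these calls carry that limit. An antisense gene, 0610040F04Rik, shares 118 exonic bases with Bhlhe40 and was at 0.038 to 0.783 RPKM.

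The profiles most like Bhlhe40 over the 9 libraries were Fosl2 (Pearson r = 0.988), the MHC gene H2-Oa (0.987) and Nr4a2 (0.986), the NR4A receptor not targeted in these mice. Nr4a2 was 0.123 to 0.355 RPKM in WT hosts, 6.54 and 3.92 RPKM in OT-II and 17.4 and 7.73 RPKM in RIPmOVA DKO-labelled libraries. The profiles most like Fos were Cd274 (Pearson r = 0.973), which encodes the ligand PD-L1, Ly6d (0.960) and Decr1 (0.959). Among the 8 genes tested, Fos, Fosl2, Batf and Bhlhe40 followed each other at r of 0.90 to 0.99, and Jun had r of -0.41 to -0.11 with these 4. All these r are over libraries that share group differences, so they are descriptions without a test.

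Between genotypes in RIPmOVA hosts all 8 genes tested had a log2 difference above 0 (Jun turned to -0.37 with quantile normalization) and none was called, where 1.07% of genes were called in either direction. At an unadjusted p under 0.05 from limma, 6 of the 8 were higher (Fos, Junb, Jund, Batf, Irf4 and Bhlhe40), where 13.5% of genes were higher and 2471 genes differed in either direction. The 2 DKO-labelled libraries lay above both OT-II libraries for 7 of the 8, all but Jun, where 34.6% of genes did. The median difference of the 8 was 0.59, beside 0.04 over all genes.

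Fos differed between genotypes in RIPmOVA hosts by 1.06 (SE 0.25, limma adjusted p = 0.069) and Bhlhe40 by 1.60 (SE 0.42, adjusted p = 0.0846). Jund differed by 0.37 (SE 0.09, adjusted p = 0.0749), Batf by 0.49 (SE 0.15, adjusted p = 0.114), Irf4 by 0.89 (SE 0.36, adjusted p = 0.205) and Junb by 0.51 (SE 0.22, adjusted p = 0.217). The adjusted p of Fos ranged from 0.0209 to 0.285 over 21 alternatives, and Fos was called in 4 of them: without DKO-labelled replicate 1 of WT hosts (0.0252), without both libraries of chimera 1 of WT hosts (0.0209), with only the 2 groups compared (0.0499) and with voom on recovered reads (0.0399). No other gene of the 8 was called in any alternative of this comparison. Other marker sums also separated the genotypes in RIPmOVA hosts. Both DKO-labelled libraries had higher sums of olfactory and vomeronasal receptor genes, of 5 thymic epithelium markers (11.7 and 8.0 against 6.94 and 5.0 RPKM, mostly Epcam) and of 6 stroma and endothelium markers (47.3 and 55.7 against 30.9 and 35.8 RPKM, mostly Pecam1). They had lower sums of regulatory T cell markers and of macrophage and dendritic cell markers. The latter sum was lower through Lyz2 alone (2.12 and 2.83 against 18.7 and 8.44 RPKM). Csf1r, Itgax, Adgre1, Flt3, Xcr1 and Siglech were low but higher in both DKO-labelled libraries, and Cd68 overlapped. With the receptor sum as a covariate the difference was 1.30 (adjusted p = 0.285) for Fos and 1.99 (adjusted p = 0.322) for Bhlhe40. The part of the other marker sums was not tested.

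**Figure D5:**
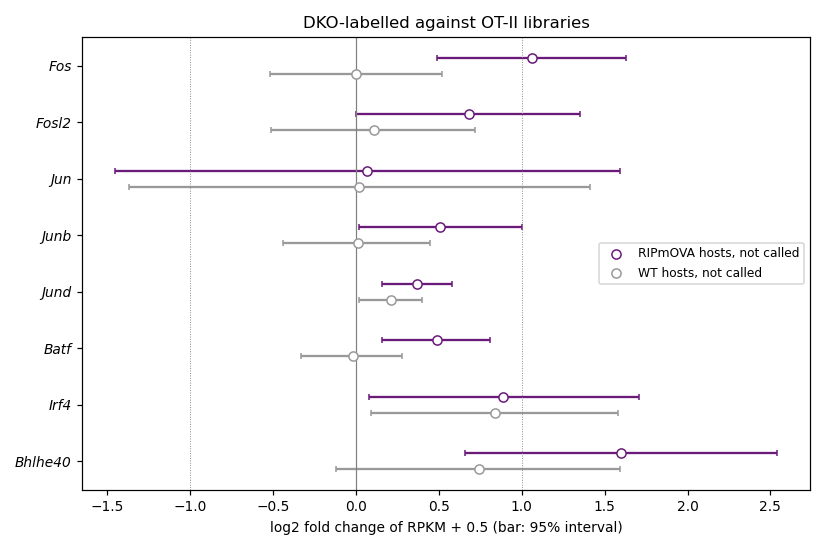
Log2 fold change of RPKM + 0.5 (horizontal axis) between DKO-labelled and OT-II libraries for the 8 genes tested, in RIPmOVA and in WT hosts; bars are 95% intervals from limma, open points are not called, and dotted lines mark the fold limit of 1. In RIPmOVA hosts Bhlhe40 (1.60) and Fos (1.06) lie past the fold limit, and in WT hosts Irf4 (0.84) and Bhlhe40 (0.74) have the highest values.

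In WT hosts none of the 8 was called between genotypes, where 0.0605% of genes were (7 genes, or 2 with the replicate block by chimera). At an unadjusted p under 0.05, Irf4 and Jund were higher in DKO-labelled cells (2 of 8), where 4.25% of genes were higher and 913 differed in either direction. Irf4 differed by 0.84 (SE 0.33, limma adjusted p = 0.574) and Jund by 0.21 (SE 0.08, adjusted p = 0.574). Voom on recovered reads called none of the 8 either. Without OT-II replicate 2 of WT hosts, Irf4 was called at 1.43 (adjusted p = 0.0474), and the number of genes called rose to 100. Fos had a difference of 0.00 (95% interval -0.52 to 0.52), Batf of -0.02 (-0.33 to 0.28) and Fosl2 of 0.11 (-0.51 to 0.72).

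The test of whether the host effect differed between genotypes called none of the 8, where 0.0173% of genes were called (2 genes, or 0 with the replicate block by chimera). At an unadjusted p under 0.05, Fos and Batf had the greater host effect in DKO-labelled cells (2 of 8), where 5.83% of genes did and 1078 (9.32%) differed in either direction, and voom called none of the 8. The difference of host effects was 1.06 (SE 0.34, limma adjusted p = 0.462) for Fos and 0.51 (SE 0.20, adjusted p = 0.510) for Batf. For Bhlhe40 it was 0.86 (95% interval -0.41 to 2.13), and it turned to -0.02 at a pseudocount of 0.1 and to -1.46 with voom on recovered reads. For Fosl2 it was 0.57 (95% interval -0.35 to 1.48). The call of Fos in DKO-labelled and not in OT-II cells is thus not a shown difference between them.

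Genes around these factors were counted from 6 lists. Of 21 kinases and small GTPases between the T cell receptor and AP-1, 0 were called by limma between hosts in either genotype, or by voom, with medians of 0.05 and -0.02. At an unadjusted p under 0.05, 3 of the 21 differed in OT-II cells, where 14.3% of all genes did, and 7 in DKO-labelled cells, where 17.6% did. Between hosts, 1.05% of all genes were called higher in OT-II and 1.52% in DKO-labelled cells. Of the list genes called below, Nfil3, Irf5 and Tbx21 passed the filter through RIPmOVA libraries alone, so the filter itself selected them for high values there. Of 14 serum response factor partners and other immediate early genes tested, only Nfkbid, an atypical inhibitor of NF-kappaB, was called, at 1.06 in OT-II and 1.28 in DKO-labelled cells. Ier2, another immediate early gene, was 116 to 139 RPKM in all libraries.

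Among 21 other leucine zipper genes tested, Nfil3 was called in OT-II cells (2.19, limma adjusted p = 0.0293) and Crem, a cAMP-responsive factor, in DKO-labelled cells (1.06, adjusted p = 0.0213). Each was called in 12 of 20 alternatives. Nfil3 lost its call without OT-II replicate 1 or DKO-labelled replicate 1 or 3 of WT hosts or either OT-II library of RIPmOVA hosts, and Crem without DKO-labelled replicate 1 or 3 of WT hosts or replicate 1 of RIPmOVA hosts. Among 8 other IRF genes tested, Irf8 was called in OT-II (2.10) and DKO-labelled cells (1.68), and Irf5 in OT-II cells (1.67, adjusted p = 0.0373). The call of Irf5 was kept in 9 of 20 alternatives and lost without any 1 of the 4 OT-II libraries or DKO-labelled replicate 1 or 3 of WT hosts, and that of Irf8 in 20 of 21 in OT-II and 21 of 21 in DKO-labelled cells. Irf8 was 0.957 to 1.39 RPKM in WT hosts and 4.53 to 7.52 RPKM in RIPmOVA hosts. None of these was called between genotypes. In RIPmOVA hosts Nfil3 was lower in DKO-labelled cells by -1.62 (limma adjusted p = 0.0722). The number of leucine zipper genes of this list called there was 0 to 1 over 22 alternatives.

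Of 19 T cell genes tested that these factors are known to bind or drive, 5 were called higher between hosts in each genotype. The median was 1.10 for OT-II and 0.86 for DKO-labelled cells. Among the 19, 2 passed the filter through RIPmOVA libraries alone, and 1 of these, Tbx21, is among the 5 in each genotype. The counts and medians thus include genes that the filter selected for high values in RIPmOVA hosts. The count in OT-II cells was 2 to 6 over the alternatives: 3 without OT-II replicate 1 of WT hosts, 2 without either OT-II library of RIPmOVA hosts and 3 with voom on recovered reads. In DKO-labelled cells it was 4 to 6. Called in both were Fasl, a death ligand (1.53 and 2.24), Il2ra, the alpha chain of the IL-2 receptor (1.88 and 2.04), Tbx21, which encodes T-bet (3.09 and 3.29), and the decoy IL-1 receptor gene Il1r2 (3.20 and 5.36). Ahr, the aryl hydrocarbon receptor, was called in OT-II cells (1.5) and the inhibitory receptor gene Ctla4 in DKO-labelled cells (2.63). Between genotypes in RIPmOVA hosts, Ahr was the 1 of 19 called, lower by -2.02 in DKO-labelled cells (limma adjusted p = 0.00739), at 2.08 and 1.18 against 6.69 and 9.46 RPKM, where 0.562% of all genes were called lower. Its call was lost without OT-II replicate 1 or 2 of RIPmOVA hosts and with the receptor covariate, and the count was 0 to 3 over 22 alternatives. Il2ra is also one of the regulatory T cell markers above. In the test of whether host effects differed, none of the genes on the 6 lists was called.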

How the data were processed

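Per the labels and the methods of the study, the authors made SMART-seq cDNA from sorted cells and Nextera XT libraries, aligned paired reads to mm10 with STAR, removed duplicates and summed reads over exons per Entrez gene. The deposited values are RPKM, rounded to 3 decimals. Strand use was not given in the sources used here. In every library 100% of the low values checked came out as whole reads, within rounding plus 0.005 read, where chance would give at most 5.6%. Genes at 1 RPKM or more in at least 2 libraries were kept (11569). Log2(RPKM + 0.5) was fitted in limma 3.58.1 (R 4.3.3) as group means over all 9 libraries with an intensity trend, in 5 contrasts, and p-values were adjusted over all genes kept. The fit was tested on simulated data. Named genes were the 10 members, the called genes of 6 lists, and the 3 genes with the profile most like Fos, Irf4 and Bhlhe40. Members and lists were chosen with earlier results of these data known. Same-numbered libraries of a host share a chimera by the mouse named in their labels. Their deviations from group means correlated at 0.01, -0.24, -0.08 and -0.08, and other pairings at -0.31 to 0.31. In groups of n = 2 the deviations mirror each other, so these values cannot check the pairing. The alternatives varied the pseudocount (0.1 or 1), the filter (none or 5 RPKM), the scaling, the groups fitted, the trend, the fold limit and a receptor gene covariate, left out each library, and added a replicate block. Voom on recovered reads and leaving out chimera 1 of WT hosts were chosen after seeing the data. Coordinates come from GENCODE M21, and sequences from RefSeq. Python 3.11.15, pandas 2.3.3 and matplotlib 3.10.9 were used.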

Additional observations from a re-analysis of the deposited data

How the results depend on the processing

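With 2 or 3 libraries per group, each library weighs heavily and low genes depend on few reads. The 2 member genes called between hosts in OT-II cells, Fosl2 and Bhlhe40, passed the filter through RIPmOVA libraries alone and had to differ. With the filter at 5 RPKM, Fosl2 was not tested, as its highest value was 4.89 RPKM. In OT-II cells the number of member genes called between hosts fell from 2 to 1 with no filter, with the filter at 5 RPKM, with quantile normalization, with only the groups compared, with voom on recovered reads and without chimera 1 of WT hosts, and was 1 to 2 with 1 library left out. Between genotypes in RIPmOVA hosts the number rose from 0 to 1 with no filter (Atf3, which is outside the 8 genes tested otherwise), with only the groups compared, with voom and without chimera 1 (Fos), and was 0 to 1 with 1 library left out, as it was in WT hosts. Over all genes, calls between hosts in OT-II cells were 142 of 11569. They were 114 of 23801 with no filter and 106 of 7167 at 5 RPKM. Quantile normalization gave 116, only the groups compared 31 and voom 125. Between genotypes in RIPmOVA hosts, 124 of 11569 genes were called. There 180 of 23801 were called with no filter, 220 with only the groups compared and 143 with voom. Why the counts moved otherwise was not tested. Called values did not change sign. Values not called did so as follows. Between hosts, Jun moved to 0.31 in OT-II and 0.15 in DKO-labelled cells without chimera 1, Junb to 0.10 and Irf4 to -0.14 in OT-II cells, and Jund to 0.05 in DKO-labelled cells with the receptor covariate. With 1 library left out, ranges in OT-II cells were -1.37 to 0.31 for Jun, -0.41 to 0.10 for Junb and -0.14 to 1.03 for Irf4, and in DKO-labelled cells -0.86 to 0.15 for Jun. Between genotypes in RIPmOVA hosts, Jun was -0.37 with quantile normalization, -0.50 with the covariate and -0.05 to 0.18 with 1 library left out. In WT hosts, Fos was 0.00 at a pseudocount of 1, Fosl2 -0.06 and Jun -0.11 with quantile normalization, and Batf 0.02 without chimera 1. Ranges with 1 library left out were -0.25 to 0.15 for Fos, -0.05 to 0.27 for Fosl2, -0.82 to 0.86 for Jun, -0.25 to 0.27 for Junb and -0.10 to 0.08 for Batf. The difference of host effects was -0.02 (pseudocount 0.1) and -1.46 (voom) for Bhlhe40, and for Jun -0.26 (quantile), -0.58 (covariate), -0.16 (voom) and -0.16 (without chimera 1), with ranges of -0.79 to 0.89 for Jun and -0.53 to 0.64 for Irf4.

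The replicate block by chimera changed no call of the 8 genes. With it, Fos was 0.15 between genotypes in WT hosts, and the difference of host effects was -0.32 for Jun and -0.01 for Irf4. Over all genes, the block gave 142, 193, 97, 2 and 0 calls in the 5 comparisons, against 142, 194, 124, 7 and 2 without it, and voom gave 125, 238, 143, 6 and 0. The receptor covariate left 20 of 124 calls between genotypes in RIPmOVA hosts and 87 of 194 between hosts in DKO-labelled cells. Without a filter the median of all genes moved to 0.13 between hosts in DKO-labelled cells, 0.16 between genotypes in RIPmOVA hosts and 0.15 in the difference of host effects.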
